A study of Homo sapiens with 12 samples.

Results

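DEAD box and DEAH box RNA helicases were followed in HK-2 cells, an immortalized line of human renal proximal tubule epithelium, exposed to a high dose of Kbr or to its control vehicle. The family was taken as 45 listed gene symbols (30 DDX and 15 DHX), matched to the annotation of the Affymetrix probe sets. The list was drawn up with earlier results of these data known. Each gene was represented by the probe set annotated to it alone that had the highest mean over all arrays. The choice of probe set used that mean and not the contrast with Kbr. Of the 45 genes, 42 had such a probe set and 41 passed a minimum of log2 4 in at least 3 arrays, among 10574 genes tested and 19775 with a single-gene probe set. DDX19B was the gene under the minimum, with a mean of 3.41 ± 0.13 (SD, n = 3) in the 24 h controls. DDX18, DDX39B and DDX47 had no probe set of their own and are not analysed here as members. The 4 groups were control and Kbr cultures after 24 h and control and Kbr cultures after 48 h, each with 3 arrays that the labels call biological replicates. All 12 cultures were grown in the same defined epithelial medium with insulin, transferrin, EGF and hydrocortisone. The labels give the dose as high, without a concentration, and use the name Kbr without a chemical formula. The values are log2 GCRMA intensities of total RNA from one immortalized line, so the groups model exposure of that line in culture.

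DEAD and DEAH box proteins use ATP to unwind short RNA duplexes, to clamp onto RNA or to strip proteins from it, and are named after the amino acids of a motif in their ATPase core. Several members act in the nucleolus, where they release small nucleolar RNAs and reshape precursors of the ribosomal subunits. Others drive the steps of the spliceosome, load and remodel messenger ribonucleoproteins for export, open structured leader sequences for translation initiation, or act in mRNA decay. In the proximal tubule, as in other epithelia, most of them are housekeeping genes.

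The array medians lay between 2.89 and 2.96 on the log2 scale. Kbr 48 h replicate 3 deviated most from its group over all genes (root mean square 0.29, against 0.164 to 0.228 on the other arrays), but not over the helicases (0.159, against 0.101 to 0.187). Only 3 of 12 proximal tubule markers exceeded the minimum (GATM, CDH6 and SLC3A1), and the defining markers LRP2, CUBN, SLC34A1, AQP1 and ANPEP were below it. All 5 epithelial markers were above it, and the log2 of their sum was 14.6 to 14.9 in controls against 14.2 to 14.4 at 24 h and 14.5 to 14.8 against 14.1 to 14.3 at 48 h, with 2 called lower at 24 h and 4 lower and 1 higher at 48 h. PAX8, of the kidney lineage, was above it and higher with Kbr by 0.55 and 0.56 (adjusted p = 0.0188 and 0.00877, limma). The log2 of the summed proximal tubule markers ranged from 12.7 to 13.1 in controls and 11.5 to 12.1 in Kbr cultures at 24 h, and from 12.6 to 13.2 against 10.1 to 10.6 at 48 h. Of 5 fibroblast markers, 3 exceeded the minimum (COL1A1, LUM and DCN), and their list moved from 12.4 to 12.9 down to 11.4 to 11.8 at 24 h and from 12.3 on every control array down to 10.2 to 10.6 at 48 h. Markers of leukocytes were all under the minimum. The part of these marker shifts in the helicase results was not tested, and in bulk RNA a change in the share of cells of a type cannot be told apart from a change in RNA per cell.

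More helicase mRNAs were higher than lower in the Kbr cultures at both times, with more calls at 48 h. At 24 h, 13 of 41 helicases were higher at an adjusted p under 0.05 (limma, Benjamini-Hochberg over all tested genes), that is 31.7%, where 32.4% of all tested genes were called, 12.4% higher and 20% lower. None of the helicases was called lower at 24 h by limma, and DDX17 and DDX50 were lower at an unadjusted p under 0.05 (2 genes). At 48 h, 26 helicases (63.4%) were higher and 3 (7.32%) lower, where 59.6% of all tested genes were called, 26.9% higher and 32.8% lower. The 3 lower were DDX5, DDX17 and DDX50. Another probe set read a positive change at 48 h for DDX5 (0.44, annotated to several genes) and for DDX50 (0.20). The share of helicases called in either direction at 24 h was thus near the background, and the direction differed from it. The members were chosen with earlier results of these data known, so these shares describe the list and are no test of the family. The median log2 fold change of the 41 helicases was 0.28 at 24 h and 0.58 at 48 h, where the medians over all tested genes were -0.06 at both times. In the control cultures alone, the median change of the members from 24 h to 48 h was -0.14, with 8 of 41 positive. Over all tested genes that median was -0.03. The part of this control shift in the larger 48 h values was not tested. Matched by replicate number, the median difference of the members was 0.277, 0.32 and 0.185 at 24 h and 0.617, 0.597 and 0.492 at 48 h, so it was positive in every pair. All 13 genes called higher at 24 h were also called higher at 48 h. They were DDX10, DDX20, DDX21, DDX23, DDX27, DDX31, DDX39A, DDX52, DDX55, DDX56, DHX9, DHX15 and DHX37. With the replicate number as a block, 20 helicases were higher and 3 lower at 24 h, where 48% of all tested genes were called.

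**Figure D1:**
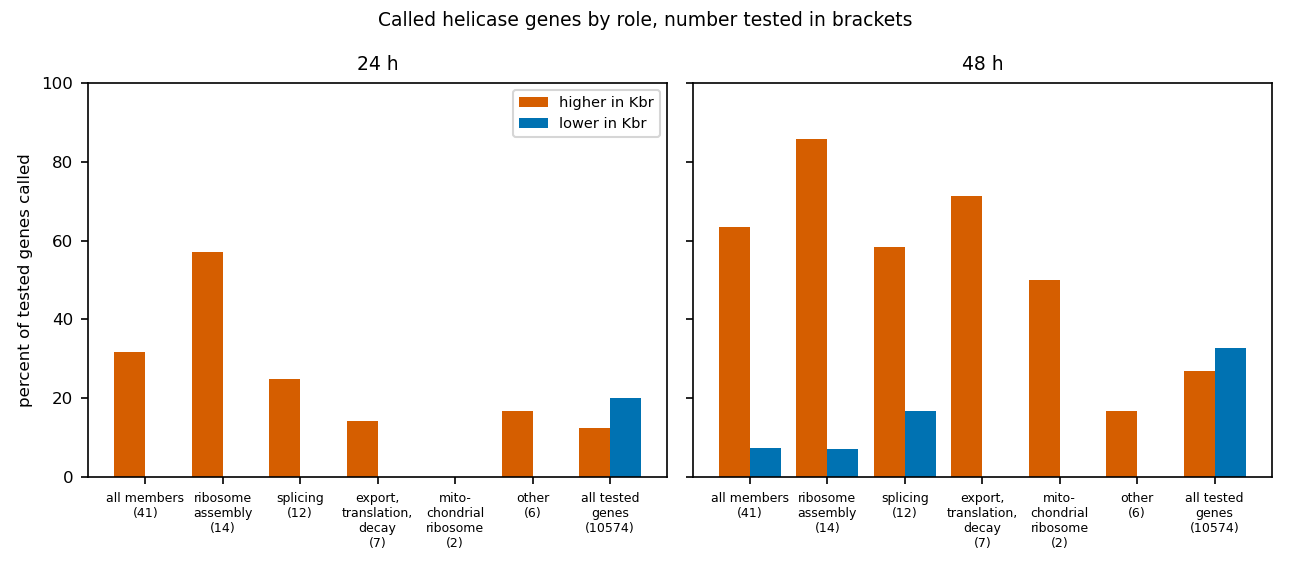
Share of tested helicases called higher (orange) or lower (blue) in Kbr cultures at 24 h and 48 h, in percent, by role, with the number tested in brackets and all 10574 tested genes at the right. At 48 h the bars for higher calls stand at 63.4% over all members against 26.9% of all tested genes.

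Sorted by role, the helicases of ribosome assembly held most of the early calls. Of the 14 tested, 8 rose at 24 h and 12 rose at 48 h, with median log2 fold changes of 0.41 and 1.00, and DDX50 fell at 48 h. Of the 12 splicing helicases, 3 rose at 24 h, and 7 rose and 2 fell at 48 h, with medians of 0.11 and 0.58. Of the 7 tested helicases of export, translation, decay and G-quadruplex unwinding, 1 rose at 24 h and 5 at 48 h (medians 0.28 and 0.62). The 6 remaining helicases had medians near 0, at -0.02 at both times, and 1 of them, DDX20, rose. By box type, 10 of 26 DDX genes rose at 24 h and 15 rose and 3 fell at 48 h, while 3 of 15 DHX genes rose at 24 h and 11 at 48 h. Of all tested genes 12.4% were higher at 24 h and 26.9% at 48 h. At 24 h the 14.3% of export, translation and decay helicases and the 16.7% of the remaining group lay near that share, the 20% of DHX genes and 25% of splicing helicases somewhat above it, and the 57.1% of ribosome assembly helicases further above. At 48 h the remaining group, at 16.7%, was under the 26.9%. No difference between these groups was tested.

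**Figure D2:**
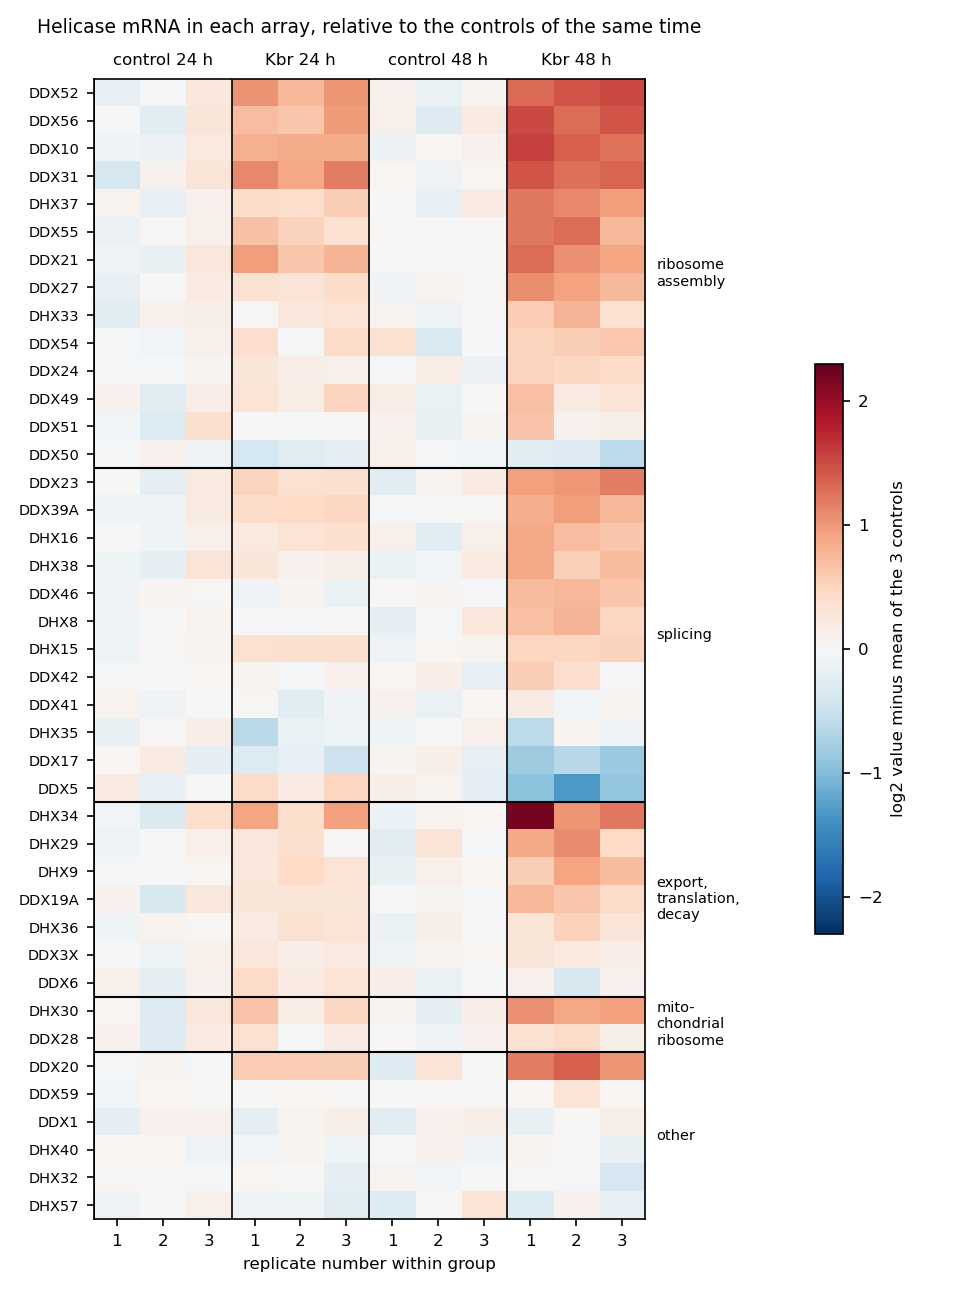
Log2 value of each of the 41 tested helicases in each of the 12 arrays, minus the mean of the 3 controls of the same time, grouped by role and ordered within a role by the 48 h fold change. The Kbr 48 h columns are red for most genes of ribosome assembly, DDX5, DDX17 and DDX50 are blue there, and DDX5 is pale red at 24 h.

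Among the ribosome assembly helicases, those of the small subunit included DDX52, the human counterpart of yeast Rok1, and DDX10, the counterpart of Dbp4. DDX52 read 7.91, 8.05 and 8.34 in the 24 h controls and 9.13, 8.86 and 9.12 in the Kbr cultures, and 8.14, 7.89 and 8.11 against 9.35, 9.48 and 9.56 at 48 h. Every Kbr array lay above every control array of the same time. Its log2 fold change was 0.94 (SE 0.13, adjusted p = 0.00068, limma) at 24 h and 1.42 (SE 0.13, adjusted p = 8.29e-06) at 48 h, or 1.91-fold and 2.67-fold. DDX10 read 8.04, 8.01 and 8.37 against 8.96, 8.99 and 9.00 at 24 h, and 7.76, 7.95 and 7.99 against 9.48, 9.29 and 9.14 at 48 h. The groups were again separate, by 0.84 (SE 0.12) and 1.40 (SE 0.12, adjusted p = 5.82e-06, limma). DHX37, which helps to release the U3 small nucleolar RNA from the small-subunit precursor, rose by 0.46 at 24 h (adjusted p = 0.0165, limma) and 1.10 at 48 h. Its 24 h call was lost without Kbr 24 h replicate 3 or control 24 h replicate 2 (adjusted p up to 0.0634). DDX49 was at 0.33 at 24 h (adjusted p = 0.141, limma; 0.0326 with the block) and rose by 0.40 at 48 h, close to the threshold (adjusted p = 0.0485, limma), and its call was lost under 9 of the 12 omissions of a single array, all but those of Kbr 48 h replicate 2, control 24 h replicate 2 and control 48 h replicate 1. The adjusted p then reached 0.185, and the call was also lost under 7 other settings, among them no filter (0.0975) and median centring (0.0658).

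Within the ribosome assembly group, the large-subunit helicases DDX31 and DDX56 also changed by more than 2-fold at 48 h. DDX31, the counterpart of Dbp7, had the largest log2 fold change of the members at 24 h. It read 6.37, 6.86 and 7.06 in the 24 h controls and 7.88, 7.65 and 7.96 with Kbr, and 6.78, 6.65 and 6.78 against 8.18, 8.01 and 8.08 at 48 h. The Kbr arrays were separate from the controls at both times, by 1.07 (SE 0.16, adjusted p = 0.000826, limma) and 1.35 (SE 0.16, adjusted p = 3.59e-05), and DDX31 was the only helicase called with at least 2-fold at 24 h. DDX56, the counterpart of Dbp9, read 9.04, 8.82 and 9.36 against 9.79, 9.72 and 10.06 at 24 h, and 8.75, 8.35 and 8.83 against 10.16, 9.92 and 10.10 at 48 h. The change was 0.78 (SE 0.17, adjusted p = 0.00533, limma) and then 1.41 (SE 0.17, adjusted p = 3.71e-05). DDX27, which acts in the 3' processing of rRNA precursors, rose by 0.36 and 0.91, and DDX55, the counterpart of Spb4, by 0.52 and 1.08. The 24 h call of DDX27 was lost when any 1 of the 3 Kbr 24 h arrays or control 24 h replicate 1 or 2 was left out (adjusted p up to 0.14), with the mean of its probe sets (0.0776), with median centring (0.0516) and with only the 24 h groups fitted (0.052), and that of DDX55 without Kbr 24 h replicate 1 or 2 or control 24 h replicate 1 (up to 0.0744). DDX24 (0.47), DDX54 (0.57) and DHX33 (0.58), the last with a role in rRNA transcription, passed at 48 h, with 24 h values of 0.18, 0.26 and 0.20 that did not. DDX54 lost its 48 h call without control 48 h replicate 2 (adjusted p = 0.0556, limma). DDX51 was not called at either time (0.01 and 0.30). The array's own 18S and 28S controls were also higher with Kbr, by 0.492 and 0.571 at 24 h and 0.513 and 0.683 at 48 h, with every Kbr array above the controls of its time. Their part in the results was not tested.

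The upstream windows of DDX31 and DDX56 are shown because these large-subunit helicases were among the strongest risers at both times. RefSeq windows of GRCh38.p14 were matched by symbol for 41 of the 45 listed genes (54 windows), all but DDX18, DDX49, DDX52 and DHX33. The 250 bases before each annotated start were searched on both strands for CCGGAAG, the core that ETS-family factors bind, and for the E-box CACGTG. Capitals mark these matches in either orientation.
DDX31, chr9:132669984-132670233, minus strand: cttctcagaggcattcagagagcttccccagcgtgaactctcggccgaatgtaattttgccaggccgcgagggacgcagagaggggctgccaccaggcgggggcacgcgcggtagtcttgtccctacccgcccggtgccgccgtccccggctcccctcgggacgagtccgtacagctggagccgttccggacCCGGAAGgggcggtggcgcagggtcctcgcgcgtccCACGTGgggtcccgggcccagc
DDX56, chr7:44573909-44574158, minus strand: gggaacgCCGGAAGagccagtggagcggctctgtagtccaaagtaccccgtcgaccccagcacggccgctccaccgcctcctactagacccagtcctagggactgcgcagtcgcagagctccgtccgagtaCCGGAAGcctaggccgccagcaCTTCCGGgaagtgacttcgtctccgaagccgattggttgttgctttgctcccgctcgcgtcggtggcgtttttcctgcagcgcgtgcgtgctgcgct
The DDX31 window holds 1 ETS-type match and 1 E-box, and the DDX56 window 3 ETS-type matches. An ETS-type match was present in 17 of the 54 helicase windows (31.5%) and in 8.52% of the 35116 windows of all genes. The ETS-type match was present for 9 of the 23 matched genes that rose at 48 h and for 4 of the 12 that were not called. Of the genes called lower at 48 h, DDX5 and DDX50 had it and DDX17 did not. The E-box was present in 14.8% of helicase windows against 6.34%, the cyclic AMP element TGACGTCA in 9.26% against 1.65%, and the antioxidant element core TGACNNNGC in 16.7% against 10.9%. The heat shock element was found in 0 helicase windows against 0.441% of all windows. These matches describe letters and not bound sites.

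DDX21 and DDX50 are paralogous nucleolar helicases that lie next to each other on chromosome 10, with 0 protein-coding genes starting between them, and their probe sets went in opposite directions. DDX21, which couples RNA polymerase I transcription to rRNA processing, read 12.47, 12.36 and 12.79 in the 24 h controls and 13.49, 13.17 and 13.32 with Kbr, and 12.42, 12.41 and 12.44 against 13.70, 13.48 and 13.32 at 48 h. The groups did not overlap at either time. The log2 fold change was 0.79 (SE 0.14, adjusted p = 0.00185, limma) and 1.08 (SE 0.14, adjusted p = 6.35e-05), and its second probe set gave 0.90 and 1.31. DDX50 read 10.75, 10.90 and 10.72 against 10.39, 10.50 and 10.57 at 24 h, and 11.02, 10.86 and 10.83 against 10.66, 10.61 and 10.30 at 48 h. All Kbr arrays were below the controls of the same time, with a change of -0.30 (SE 0.11, adjusted p = 0.0666, limma) at 24 h and -0.38 (SE 0.11, adjusted p = 0.0141) at 48 h. With the replicate block the 24 h value passed (adjusted p = 0.0414, limma), as it did without Kbr 48 h replicate 3 (0.0282). The 48 h call was lost without control 48 h replicate 1 (adjusted p = 0.0535, limma), with only the 48 h groups fitted (0.0523) and with the mean of its probe sets (-0.05, adjusted p = 0.519), and a second DDX50 probe set, near the minimum with a mean of 4.31, gave 0.05 and 0.20. The upstream windows of DDX21 and DDX50 are shown for comparison, since their chosen probe sets went in opposite directions.
DDX21, chr10:68955920-68956169, plus strand: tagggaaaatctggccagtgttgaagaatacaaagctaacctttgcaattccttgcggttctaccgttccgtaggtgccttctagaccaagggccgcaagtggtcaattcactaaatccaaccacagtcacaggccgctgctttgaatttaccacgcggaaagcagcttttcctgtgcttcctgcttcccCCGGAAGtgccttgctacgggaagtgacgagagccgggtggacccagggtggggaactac
DDX50, chr10:68901065-68901314, plus strand: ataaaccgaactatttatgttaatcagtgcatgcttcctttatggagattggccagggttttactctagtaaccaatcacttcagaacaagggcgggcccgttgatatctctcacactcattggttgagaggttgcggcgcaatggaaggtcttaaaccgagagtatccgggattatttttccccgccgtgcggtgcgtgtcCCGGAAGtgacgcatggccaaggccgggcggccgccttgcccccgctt
Each window carries 1 ETS-type match, and its part in the changes of either gene was not tested.

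Of the 12 splicing helicases, 7 rose at 48 h, DDX5 and DDX17 fell on their single-gene probe sets, and DDX41, DDX42 and DHX35 were called at neither time. DDX23, which frees the 5' splice site from the U1 small nuclear RNA, read 8.46, 8.23 and 8.64 in the 24 h controls and 8.96, 8.80 and 8.81 with Kbr, and 7.51, 7.83 and 7.95 against 8.70, 8.76 and 8.94 at 48 h. The Kbr arrays were alike at both times and the control arrays were lower at 48 h, by -0.68 (SE 0.14, adjusted p = 0.0281, limma). The effect of Kbr was 0.41 (SE 0.14, adjusted p = 0.0416, limma) and 1.04 (SE 0.14, adjusted p = 8.65e-05). The 24 h call was lost when any 1 of the 3 Kbr 24 h arrays, control 24 h replicate 1 or 2, Kbr 48 h replicate 2 or control 48 h replicate 2 was left out (adjusted p up to 0.144), with no filter (0.0757), with each probe set on its own (0.0513) and with median centring (0.0536). The call over time in controls was lost without control 24 h replicate 1 or 3 or control 48 h replicate 1 or 2 (up to 0.124), with no filter (0.0517) or with only the groups compared (0.136).

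DHX15, which dismantles spliceosomes, rose at both times and read 13.01, 13.14 and 13.17 against 13.45, 13.48 and 13.48 at 24 h, and 12.79, 12.95 and 12.99 against 13.41, 13.39 and 13.45 at 48 h. The separate groups differed by 0.37 (SE 0.09, adjusted p = 0.00884, limma) and 0.50 (SE 0.09, adjusted p = 0.000484). DHX16, DHX38 and DHX8, the motors of successive steps of the splicing cycle, rose at 48 h by 0.74, 0.72 and 0.65, with 24 h values of 0.30, 0.17 and 0.00. DHX16 passed at 24 h with the replicate block (adjusted p = 0.0402, limma) or without control 48 h replicate 2 (0.0427). DDX41 (-0.10 and 0.07), DDX42 (0.06 and 0.30) and DHX35 (-0.30 and -0.21) were not called at either time, although DHX35 was called lower at 24 h with the block (adjusted p = 0.044, limma). DDX42 was called higher at 48 h without Kbr 48 h replicate 3 (0.47, adjusted p = 0.00577, limma).

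DDX39A, an mRNA export and splicing factor related to DDX39B, read 11.59, 11.63 and 11.92 against 12.13, 12.17 and 12.18 at 24 h, and 11.47, 11.50 and 11.54 against 12.33, 12.46 and 12.27 at 48 h. It rose by 0.45 (SE 0.10, adjusted p = 0.00725, limma) and 0.85 (SE 0.10, adjusted p = 4.11e-05) with no overlap. A probe set annotated to 3 genes, DDX39B among them, was at -0.29 and -0.27 and was not called (adjusted p = 0.222 and 0.201, limma), so no value belongs to DDX39B alone.

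DDX17 and DDX5 are paralogues with roles in splicing, microRNA processing and transcriptional co-regulation. DDX17 read 12.25, 12.40 and 11.99 in the 24 h controls against 11.90, 12.03 and 11.74 with Kbr, and 12.72, 12.79 and 12.46 against 11.84, 12.02 and 11.80 at 48 h. The control arrays at 48 h were all above the Kbr arrays, while 1 control array overlapped at 24 h. The change was -0.32 (SE 0.13, adjusted p = 0.0875, limma) and -0.77 (SE 0.13, adjusted p = 0.00051), and the replicate block gave an adjusted p of 0.00458 at 24 h. The 24 h value also passed without control 24 h replicate 3 (-0.43, adjusted p = 0.0366, limma). All 5 DDX17 probe sets were lower at 48 h, by -0.48 to -0.90. On the chosen probe set the mean of the Kbr arrays was 11.89 at both times. Its controls were higher at 48 h than at 24 h, by 0.44 (adjusted p = 0.0861, limma, and 0.00391 with the block).

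DDX5 gave opposite results on its probe sets. Its single-gene probe set read 8.04, 7.65 and 7.81 in the 24 h controls against 8.27, 8.03 and 8.33 with Kbr, and 8.57, 8.51 and 8.21 against 7.48, 7.11 and 7.54 at 48 h. At 24 h 1 Kbr array lay within the control range, and at 48 h every Kbr array was below every control array. The change was 0.37 (SE 0.15, adjusted p = 0.0865, limma, and 0.0362 with the block) and then -1.05 (SE 0.15, adjusted p = 0.000161). From 24 h to 48 h the mean of the Kbr arrays went from 8.21 to 7.37. The controls were higher at 48 h than at 24 h, by 0.59 (adjusted p = 0.0582, limma, and 0.0129 with the block). A brighter probe set annotated to 3 genes, DDX5 among them, read 13.38, 13.24 and 13.36 against 13.58, 13.49 and 13.48 at 24 h, and 13.16, 13.45 and 13.32 against 13.66, 13.83 and 13.74 at 48 h. There every Kbr array was above the controls, by 0.19 (adjusted p = 0.196, limma) and 0.44 (SE 0.10, adjusted p = 0.00371). The fall of DDX5 at 48 h therefore holds for 1 probe set, and which transcripts each one reads was not tested. The upstream windows of both paralogues are shown because their single-gene probe sets were the strongest fallers.
DDX5, chr17:64506639-64506888, minus strand: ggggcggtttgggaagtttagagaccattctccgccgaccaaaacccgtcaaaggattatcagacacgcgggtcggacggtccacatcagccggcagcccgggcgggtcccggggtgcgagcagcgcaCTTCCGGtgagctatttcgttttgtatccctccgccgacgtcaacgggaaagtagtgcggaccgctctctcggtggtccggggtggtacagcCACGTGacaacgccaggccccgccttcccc
DDX17, chr22:38506312-38506561, minus strand: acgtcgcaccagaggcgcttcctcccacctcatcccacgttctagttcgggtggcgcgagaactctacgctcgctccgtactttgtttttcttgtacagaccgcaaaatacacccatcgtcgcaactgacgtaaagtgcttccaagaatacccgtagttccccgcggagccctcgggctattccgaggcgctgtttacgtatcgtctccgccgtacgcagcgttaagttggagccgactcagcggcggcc
The DDX5 window holds 1 ETS-type match and 1 E-box. The DDX17 window holds neither.

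DDX46, which remodels the U2 small nuclear ribonucleoprotein at the branch site, read 10.86, 10.99 and 10.97 in the 24 h controls against 10.87, 11.00 and 10.79 with Kbr, and 10.56, 10.62 and 10.52 against 11.30, 11.33 and 11.19 at 48 h. The groups overlapped at 24 h and were separate at 48 h, where both the higher Kbr arrays and the lower controls contributed to the gap. The change was -0.05 (SE 0.09, adjusted p = 0.697, limma) and 0.71 (SE 0.09, adjusted p = 5.81e-05). A second DDX46 probe set gave 0.09 and 0.05, with 48 h values of 7.61, 7.79 and 7.76 in controls and 7.77, 7.68 and 7.87 with Kbr. The rise thus holds for 1 of the 2 probe sets.

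**Figure D3:**
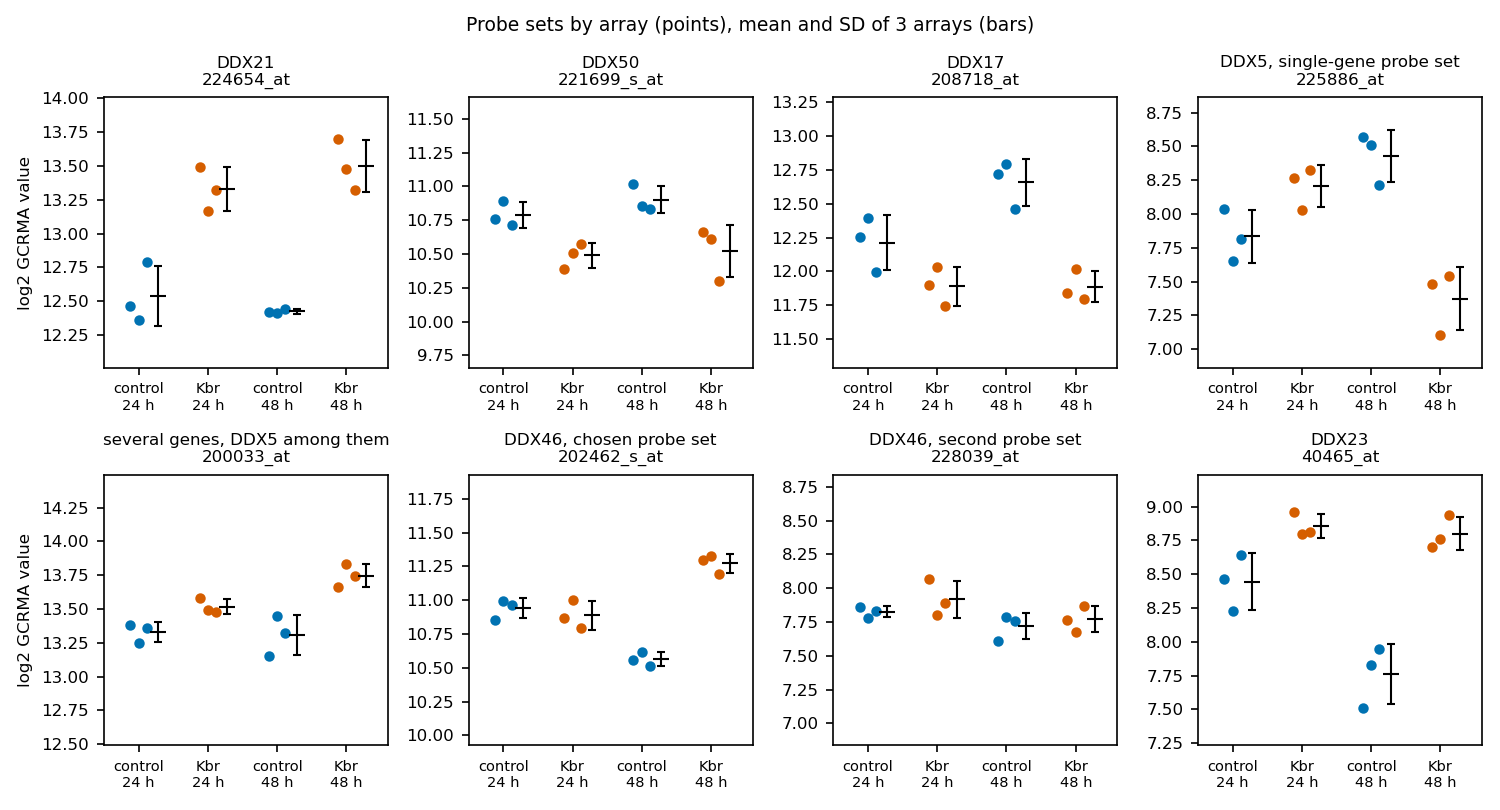
Log2 GCRMA value of 8 probe sets in each of the 12 arrays (points, blue for control and orange for Kbr), with the mean and SD of the 3 arrays of a group (bars); each panel spans its own range of log2 values. The single-gene DDX5 probe set drops from about 8.21 to 7.37 in Kbr cultures between 24 h and 48 h, while the probe set annotated to several genes goes from 13.52 to 13.74.

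Of the helicases of messenger RNA export, translation and decay, DHX34, an activator of nonsense-mediated decay, had the largest log2 fold change at 48 h. It read 6.38, 6.12 and 6.84 against 7.36, 6.85 and 7.39 at 24 h, and 5.88, 6.10 and 6.06 against 8.21, 7.03 and 7.23 at 48 h. The Kbr arrays at 48 h were all above the controls, with replicate 1 well above the other 2. The change was 0.75 (SE 0.29, adjusted p = 0.0675, limma; 0.0394 with the block) and 1.48 (SE 0.29, adjusted p = 0.00115). The 24 h value passed without Kbr 48 h replicate 1 (adjusted p = 0.0168, limma) or without control 24 h replicate 3 (0.0412). DHX9, a nuclear helicase of long duplexes, rose by 0.34 (adjusted p = 0.0413, limma) and 0.74 (adjusted p = 0.000242), but its 24 h call was lost when any 1 of the 6 arrays of the 24 h groups or control 48 h replicate 3 was left out (adjusted p up to 0.139). It was also lost with no filter (0.0546), the mean of its probe sets (0.216), each probe set on its own (0.0527) and arrays centred on their median (adjusted p = 0.0503, limma). DHX29, which helps initiation on structured leaders, rose at 48 h by 0.81 (24 h value 0.22). DHX36, which unwinds G-quadruplexes, rose at 48 h by 0.37 and was at 0.28 at 24 h, where the block gave an adjusted p of 0.00797 (limma). The 48 h call of DHX36 was lost without Kbr 48 h replicate 2 (adjusted p = 0.0543, limma) and with suffix-free probe sets (0.0607).

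DDX19A, which releases export factors at the nuclear pore, read 9.97, 9.51 and 10.14 against 10.16, 10.15 and 10.15 at 24 h, and 9.66, 9.74 and 9.63 against 10.45, 10.32 and 10.12 at 48 h. It rose at 48 h by 0.62 (SE 0.15, adjusted p = 0.00387, limma) and was at 0.28 (SE 0.15, adjusted p = 0.165) at 24 h. Its near-identical neighbour on chromosome 16, DDX19B, read between 2.86 and 3.55 on the 12 arrays, under the minimum, and a probe set annotated to both was at -0.22 and 0.10 (adjusted p = 0.147 and 0.433, limma). A second probe set annotated to DDX19A alone was at 0.21 and 0.58 (adjusted p = 0.298 and 0.00546, limma, each probe set on its own). The paralogues can share probes, so the DDX19A rise is uncertain between them.

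The translation factor DDX3X was close to the threshold, reading 12.76, 12.64 and 12.87 against 13.01, 12.90 and 12.97 at 24 h and 12.71, 12.89 and 12.86 against 13.10, 13.04 and 12.97 at 48 h. Each Kbr array was above every control array of its time, with changes of 0.21 and 0.22 (adjusted p = 0.113 and 0.0634, limma), and the block called it at 48 h (adjusted p = 0.0476). Its 3 other passing probe sets were all called higher at 48 h when tested on their own, at 0.40, 0.66 and 0.57. DDX6, a decay and repression factor of processing bodies, was at 0.32 and -0.06. At 24 h it passed with the block (adjusted p = 0.00968, limma) and with the mean of all its single-gene probe sets (0.23, adjusted p = 0.0393).

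Of the mitochondrial ribosome helicases, DHX30 read 8.52, 8.20 and 8.74 against 9.15, 8.66 and 8.97 at 24 h, and 8.25, 7.98 and 8.33 against 9.24, 9.07 and 9.13 at 48 h. It rose at 48 h by 0.96 (SE 0.16, adjusted p = 0.000461, limma) and was at 0.44 at 24 h (adjusted p = 0.0605; 0.00639 with the block). The 24 h value passed without Kbr 24 h replicate 2 (adjusted p = 0.0338, limma) or without control 24 h replicate 3 (0.0302). Another DHX30 probe set went the other way at 48 h, at -0.45 (adjusted p = 0.0912, limma), so the rise holds for 2 of its 3 probe sets above the minimum, and the mean of all its probe sets was not called (0.18, adjusted p = 0.093, limma). DDX28, a factor of the large mitochondrial subunit, was at 0.16 and 0.30 and was not called at either time. At 48 h it was called after quantile normalization (0.41, adjusted p = 0.02, limma) and with array weights (0.39, adjusted p = 0.0271), and its second single-gene probe set was called on its own (0.57, adjusted p = 0.0351).

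In the remaining group DDX20, the Gemin3 subunit of the SMN complex that assembles spliceosomal ribonucleoproteins, rose at both times. It read 9.14, 9.23 and 9.13 against 9.75, 9.76 and 9.73 at 24 h, and 8.59, 9.19 and 8.91 against 10.10, 10.27 and 9.92 at 48 h. The separate groups differed by 0.58 (SE 0.14, adjusted p = 0.0103, limma) and 1.20 (SE 0.14, adjusted p = 3.79e-05). DDX1, a subunit of the tRNA ligase complex, was at 0.00 and -0.01, with 11.80, 12.11 and 12.11 in the 24 h controls and 11.79, 12.09 and 12.14 with Kbr. DDX59 (0.03 and 0.14), DHX32 (-0.05 and -0.13), DHX40 (-0.04 and -0.03) and DHX57 (-0.15 and -0.13) were not called at either time.

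**Figure D4:**
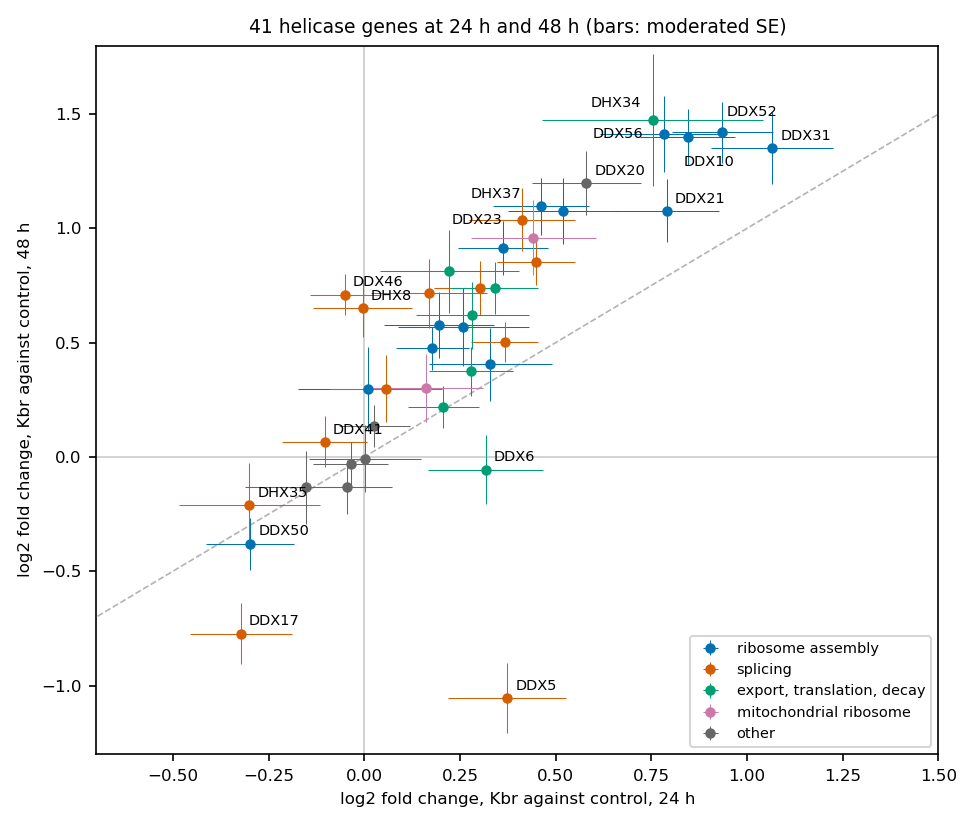
Log2 fold change of Kbr against control at 24 h (horizontal) and at 48 h (vertical) for the 41 tested helicases, coloured by role, with moderated standard errors as bars and a dashed line of equal change. Most points lie above the line, DDX46 sits near 0 at 24 h and at 0.71 at 48 h, and DDX5 lies at 0.37 and -1.05.

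Whether the effect of Kbr changed with time was tested as the difference between the 48 h and 24 h effects. By this test 1 of the 41 helicases had a higher effect at 48 h (DDX46) and 1 a lower one (DDX5), or 4.88%, where 5.58% of all tested genes were called, 2.09% higher and 3.49% lower. The difference was 0.76 for DDX46 (SE 0.13, adjusted p = 0.0136, limma) and -1.43 for DDX5 (SE 0.22, adjusted p = 0.0107), with both genes resting on 1 probe set as described. All 13 helicases called at both times had larger log2 fold changes at 48 h, a description that the test of the difference did not call for these genes without the block. With the replicate block 9 helicases passed upward and 3 downward, where 20.2% of all tested genes passed. The additional genes were DDX20, DDX23, DDX27, DDX56, DHX8, DHX9, DHX30 and DHX37 upward, and DDX6 and DDX17 downward. After quantile normalization the split was 2 higher and 1 lower, where 5.23% of all tested genes were called. A single array also mattered: without Kbr 48 h replicate 3 the count of higher effects was 7 (DDX10, DDX20, DDX27, DDX46, DDX55, DHX8 and DHX37), where 14.3% of all tested genes were called in either direction, and without control 48 h replicate 3 it was 3 (DDX46, DHX8 and DHX37), against 6.65%. In the control cultures alone, 2 helicases were lower at 48 h than at 24 h (DDX23 and DDX46), or 4.88% where 4.03% of all tested genes were called, 1.73% higher and 2.3% lower. None was called higher over time by limma (2 at an unadjusted p under 0.05, DDX5 and DDX17), and DDX5 was called without control 48 h replicate 3 (0.70, adjusted p = 0.0373, limma). The block gave 2 higher (DDX5 and DDX17) and 6 lower, or 8 of 41, where 20.8% of all tested genes were called. The call for DDX46, at -0.38 (adjusted p = 0.0452, limma), was lost under every omission of a single array except Kbr 48 h replicate 3, with an adjusted p of up to 0.169. Counting all alternatives, it was lost in 18 of 25. The second DDX46 probe set was at -0.11 in controls over time (adjusted p = 0.607, limma, each probe set on its own). The comparison of controls over time shares its controls with the test of the difference.

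Of the 41 tested helicases, 30 had a second single-gene probe set above the minimum. Of 10 such helicases called at 24 h, 6 had another probe set called the same way when each was tested on its own, and of 23 called at 48 h, 20 did. In that fit 27% of all 19345 tested probe sets were called at 24 h and 56% at 48 h, in either direction. Among the called helicases, probe sets of DDX50 and DHX30 differed in sign at 48 h. DDX49 had a probe set at 1.11 at 48 h beside its chosen one at 0.40.

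Genes that work with these helicases were counted from lists of their biochemical partners, also drawn up with earlier results of these data known. Of 21 tested G-patch proteins, many of which activate DEAH helicases through a glycine-rich domain, 6 were higher and 1 lower at 24 h and 15 higher and 1 lower at 48 h, with medians of 0.28 and 0.52. The share called was 33.3% at 24 h, near the 32.4% of all tested genes, and 76.2% against 59.6% at 48 h, where 71.4% were higher against 26.9%. GPATCH3 had the largest change of this list, reading 4.66, 4.77 and 4.94 against 6.04, 5.94 and 6.24 at 24 h, and 4.58, 4.58 and 4.13 against 6.76, 6.63 and 6.60 at 48 h. The groups were far apart, by 1.28 (SE 0.14, adjusted p = 0.000192, limma) and 2.23 (SE 0.14, adjusted p = 1.09e-06). The control values, between 4.13 and 4.94, were near the minimum of log2 4. GPATCH2 rose by 0.64 and 1.47 and SUGP1, a splicing factor, by 0.93 and 1.21, while ZGPAT was at 0.43 at 24 h (adjusted p = 0.132, limma; 0.0239 with the block) and rose by 1.32 at 48 h. The 24 h call of GPATCH2 was lost without Kbr 24 h replicate 1 or 2 or control 24 h replicate 1 or 2 (adjusted p up to 0.115), and with no filter (0.0717).

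Of 22 tested binding partners of DEAD helicases, 4 were higher and 2 lower at 24 h and 14 higher and 2 lower at 48 h (medians 0.19 and 0.43). The share called was 27.3% at 24 h, under the 32.4% of all tested genes, and 72.7% against 59.6% at 48 h. GEMIN5, a partner of DDX20 in the SMN complex, rose by 0.78 and 1.24, and RBM8A, an exon junction protein, by 0.69 and 1.34, although another RBM8A probe set was at -0.10 at 48 h (adjusted p = 0.486, limma). MIF4GD, a partner of the histone mRNA binding protein SLBP, fell, with log2 fold changes of -1.64 and -2.39 and no overlap between groups, at 8.91, 8.76 and 8.33 against 7.16, 7.12 and 6.80 at 24 h and 9.13, 9.16 and 8.85 against 6.74, 6.57 and 6.65 at 48 h.

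Of 17 tested RNA helicases of the same superfamily outside the listed members, 5 were higher and 3 lower at 24 h and 6 higher and 7 lower at 48 h, with medians of -0.19 and -0.29. At 48 h these were 35.3% higher and 41.2% lower, against 26.9% and 32.8% of all tested genes, and 47.1% were called at 24 h against 32.4%. Among these SNRNP200, which unwinds U4 from U6 in the spliceosome, rose by 0.96 and 1.63, and UPF1, the nonsense-mediated decay helicase, by 0.82 and 1.25. The 24 h call of UPF1 was lost with the mean of its single-gene probe sets (0.76, adjusted p = 0.0698, limma). The 24 h call of SNRNP200 was lost with no expression filter (adjusted p = 0.0661, limma), and it was also lost without Kbr 24 h replicate 2 or control 24 h replicate 1 or 3 (up to 0.0925). DDX25, a DEAD box helicase best known from the testis, fell, with log2 fold changes of -1.06 and -1.66. IFIH1, a sensor of viral double-stranded RNA, was at -0.19 at 24 h (adjusted p = 0.68, limma) and fell by 1.63 at 48 h (adjusted p = 0.00111).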

How the data were processed

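Total RNA from 12 HK-2 cultures was hybridised to Affymetrix arrays with 54675 probe sets. The authors deposited log2 values made with GCRMA, per the submitters' processing notes, without a version. The genome build and probe definitions behind them are not given in these sources. Of the probe sets, 41091 had 1 gene symbol, 1801 several and 11721 none in the platform annotation, and 62 controls were left out. Arrays give no read depth, so the number of arrays (3 per group) limits the precision.

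The members and gene lists were chosen with earlier results of these data known, and all tests come from fits over all genes. A gene's value was that of its brightest single-gene probe set on average, tested if log2 exceeded 4 in at least 3 arrays. In R 4.3.3, lmFit and eBayes of limma 3.58.1 fitted a mean per group on all 12 arrays, with 8 residual degrees of freedom and 2.871 from the prior, two-sided, with Benjamini-Hochberg adjustment over 10574 genes and calls at an adjusted p under 0.05. The fit was tested on simulated data. Python 3.11.15, pandas 2.3.3 and matplotlib 3.10.9 made the tables and plots.

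Same-numbered arrays deviated together from their group means, with r of 0.232 to 0.633 over 18 pairs across groups. For 36 pairs of different number r was -0.378 to -0.0042. Deviations cancel within a group, so the second range follows in part from the first. From the first range the replicate numbers were taken to pair the arrays, as judged from the data. The fit with the number as a block is given beside results whose call it changes. Described in full are the 6 members with the largest rise and the 6 with the largest fall among those called at each time (3 fell), members called in the difference between times, and 4 paralogous pairs; from each partner list and time, the 3 genes that changed most, taking called genes first. Alternatives covered the filter, the choice of probe set, scaling, an offset, the prior, array weights, the arrays fitted, the threshold and each array left out. The probe sets annotated to several genes were added after seeing the data.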

Additional observations from a re-analysis of the deposited data

Results flagged for a closer look

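Among the helicases and the partner genes named above, 3 had an effect of Kbr that differed between 24 h and 48 h. This was by the test of the difference itself (limma, adjusted over all tested genes), which called 590 of 10574 genes (5.58%). Of the 21 tested G-patch proteins, 2 had a higher effect at 48 h (9.52%, against 2.09% of all tested genes). The difference was -1.43 for DDX5 (adjusted p = 0.0107, limma), whose single-gene probe set was lower in 3 of 3 pairs at 48 h and higher in 3 of 3 pairs at 24 h. On the probe set annotated to 3 genes the difference was 0.25 (adjusted p = 0.34, limma). It was 0.76 for DDX46 (adjusted p = 0.0136, limma), higher in 3 of 3 pairs at 48 h, and -0.04 on the second DDX46 probe set. It was 0.95 for GPATCH3, a G-patch protein (adjusted p = 0.0256, limma), and this call was lost without Kbr 24 h replicate 1 or 2, Kbr 48 h replicate 1 or 2, or control 24 h replicate 3 (adjusted p of 0.0592 to 0.0713). The causes were not tested. Groups of 3 arrays were too small for the test of single outlying arrays.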

How the results depend on the processing

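The 48 h counts (26 higher, 3 lower) stayed within 1.5 times their value under every alternative run, with 24 to 26 higher and 2 to 3 lower when 1 array was left out. Over all tested genes the share called at 48 h went from 59.6% to 46% at an adjusted p under 0.01. It was 65% with array weights, 69.4% with the block and 53% to 59.2% without 1 array. At 24 h the 13 higher became 7 at an adjusted p under 0.01 and 20 with the replicate block, the 0 lower became 1 with array weights and 3 with the block, and leaving out 1 array gave 9 to 14 higher and 0 to 1 lower. Over all tested genes the share called at 24 h went from 32.4% to 17.3% at an adjusted p under 0.01. It was 41.2% with array weights, 48% with the block and 21.3% to 36.7% without 1 array. For the difference between times, 1 higher became 0 at an adjusted p under 0.01, 10 with array weights, 9 with the block, 0 with suffix-free probe sets and 2 with quantile normalization or an offset of 32, and 1 lower became 0 at an adjusted p under 0.01 and 3 with the block. Without 1 array it was 1 to 7 higher and 1 lower. Over all tested genes the share called in the difference went from 5.58% to 0.303% at an adjusted p under 0.01. It was 16.8% with array weights, 20.2% with the block and 1.29% to 14.3% without 1 array. For control cultures over time, 2 lower became 0 at an adjusted p under 0.01 or with only the groups compared, 1 with no filter, the mean of probe sets, suffix-free probe sets, each probe set on its own, quantile normalization or array weights, and 6 with the block. The 0 higher became 1 with quantile normalization or the offset and 2 with the block. Without 1 array it was 0 to 1 higher and 0 to 2 lower. Over all tested genes the share called in controls over time went from 4.03% to 0.293% at an adjusted p under 0.01. It was 3.44% with array weights, 20.8% with the block and 0.265% to 6.19% without 1 array. With suffix-free probe sets DDX50 at 48 h was 0.20 (adjusted p = 0.0712, limma), RBM8A at 48 h -0.10 and the DDX46 difference -0.041. On the probe set annotated to several genes, DDX5 was 0.44 at 48 h and its difference 0.25. The causes were not tested. The block lost no call of a member at either time. DHX30 lost its 48 h call with the mean of all its probe sets (0.18). All values are relative to array-wide scaling, and 3 arrays per group limit small changes.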

Other observations

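Of the listed helicases without a probe set of their own, 2 lie on probe sets annotated to several genes. The probe set naming DDX47, a ribosome assembly helicase, together with 1 other gene read 10.86, 11.12 and 11.22 in the 24 h controls and 11.54, 11.71 and 11.70 with Kbr, and 10.71, 11.03 and 10.94 against 11.59, 11.85 and 11.97 at 48 h. Every Kbr array was above the controls of its time, by 0.58 (SE 0.14, adjusted p = 0.0118, limma) and 0.91 (SE 0.14, adjusted p = 0.000261), but the value cannot be assigned to DDX47 alone. DDX27, chosen at 0.36 and 0.91, had a second single-gene probe set at 0.22 (adjusted p = 0.261, limma, each probe set on its own) and 0.85 (adjusted p = 0.000412), and a probe set annotated to it and 1 other gene at 0.34 and 0.94.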
